A study of Mus musculus with 17 samples.

Results

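The Bcl2 family decides whether a cell survives or dies through its mitochondria. Its pro-survival proteins hold back the pore-forming proteins of the outer mitochondrial membrane, and the BH3-only proteins, which are raised or released by stress, relieve that hold. Plasma cells are known to depend above all on MCL1 for survival in the bone marrow, while their BCL2 and BCL-XL are regarded as less critical.

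Transcripts of 10 genes of this family were followed in antibody secreting cells (ASCs), which are the antibody producing cells of the bone marrow. These were the pro-survival genes Mcl1, Bcl2 and Bcl2l1, the pore-forming genes Bax and Bak1, and the BH3-only genes Bcl2l11, Bid, Bad, Bbc3 and Pmaip1. Members were all probes that the platform annotation assigns to one of these symbols, which gave 24 of the 45281 probes on the array, for 9 of the 10 genes. The annotation table used here assigns no probe to Bax, so Bax was not analysed here. Of the 24 probes, 16 probes for 7 genes were detected often enough to be tested, and Bak1 and Bid had no tested probe. Bcl2 is covered by 8 probes, and probes of 1 gene share their transcript and are not separate replicates of a condition.

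ASCs were sorted from the bone marrow of the hind legs of mice and hybridized to Illumina MouseWG-6 v2 BeadChips, where a brighter probe stands for more of its transcript. The young group held 9 samples from mice of 6 to 8 weeks, and the aged group held 6 samples from mice of over 17 months. For young samples 3 and 4 there are 2 arrays each, which were averaged, so that 17 arrays give 15 samples. No strain, genotype or treatment is given for these mice in the sources used here. Some samples held the cells of 1 mouse and others those of several mice combined, and which were which is not given. The study names more aged mice than there are aged samples, and as many young mice as young samples. Pooling and age therefore cannot be told apart. Values are log2 quantile normalized signals without background subtraction, which understate fold changes of dim probes, and a probe was called detected at a detection p-value under 0.05. All differences are aged minus young, tested with limma over 11073 probes with Benjamini-Hochberg adjustment. Their precision is limited by how many arrays there are. In such bulk samples fewer cells of a type and less RNA per cell cannot be told apart.

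The sorted samples were checked against marker genes. Between 8998 and 15864 probes were detected per young sample and between 10401 and 17120 per aged sample. The mean log2 signal of 12 plasma cell markers lay between 8.91 and 9.25 in young and between 9.24 and 10.05 in aged samples, and 11 of 11 tested markers had a higher aged mean, 2 of them with an adjusted p from limma under 0.05. Aged sample 2 stood apart at 9.24, within the young range, while the other aged samples lay between 9.73 and 10.05. Without it 317 of 11781 instead of 153 of 11073 tested probes were called, 0 of them members. At an unadjusted p from limma under 0.05 there were then 6 of 17 instead of 3 of 16 tested members. Of all tested probes 1893 instead of 1560 passed this threshold. Aged sample 2 was singled out for lying near the young samples, so the counts without it are no cleaner estimate. Without aged sample 6 there were 1 of 17 members at this threshold, beside 1391 of 11755 tested probes. Markers of precursor B cells moved the other way from those of plasma cells. The mean of 9 genes lay between 8.55 and 9.53 in young and between 8.19 and 8.71 in aged samples. Of 7 tested genes 4 fell (adjusted p from limma under 0.05). Transcripts of neutrophils and their precursors were abundant in both groups, with 13 to 14 of 14 markers detected in each sample and mean log2 signals of 10.06 to 11.26 in young and 10.02 to 11.21 in aged samples, although they are not genes of ASCs. Of these 14 markers 11 had a lower aged mean (median log2 fold change of the 14 -0.28), as had 6 of 6 tested markers of basophils and mast cells (median -0.27) and 3 of 3 of erythroid cells (median -0.28). None of those with a lower aged mean was called (adjusted p from limma 0.168 or more). The neutrophil markers with a higher aged mean were Prtn3 (0.62, adjusted p = 0.0894 from limma), Ctsg (0.57) and Elane (0.16), which were not called either. The members studied here are also expressed in these other cells. The part of cell composition in the results that follow was not tested.

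None of the tested probes of the Bcl2 family reached an adjusted p from limma under 0.05 between aged and young ASCs (0 of 16, against 1.38% of all tested probes). At an unadjusted p under 0.05, 3 of the 16 probes differed, all higher in aged ASCs (the share of all tested probes that were higher at this threshold was 8.81%), and these were 1 probe of Mcl1 and 2 probes of Bcl2. The group mean was higher in aged samples for 15 of 16 tested probes, with a median log2 fold change of 0.31, beside one of -0.01 over all tested probes. With background correction by neqc, which stretches the differences of dim probes, these medians were 0.53 and -0.02, and 0 of 16 probes were called. Counted by the brightest tested probe of each gene, 7 of 7 genes had a higher aged mean, where 48.6% of the 6289 genes tested did, although the sign of Bcl2l11 (0.05) changed when young sample 2 or 9 or aged sample 3 or 4 was left out, and that of Bad (0.02) under another scaling. All 9 tested pro-survival probes, 6 of them of Bcl2, had a higher aged mean, with a median log2 fold change of 0.36. The 7 BH3-only probes had a median of 0.05, and 6 of them had a higher aged mean. By the brightest tested probe of each gene, the pro-survival differences were 0.45 (Mcl1), 0.38 (Bcl2) and 0.35 (Bcl2l1). The BH3-only ones were 0.77 (Bbc3), 0.24 (Pmaip1), 0.05 (Bcl2l11) and 0.02 (Bad). A difference between these roles was not tested. No tested probe separated all aged from all young samples, which 0.659% of all tested probes did.

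**Figure D1:**
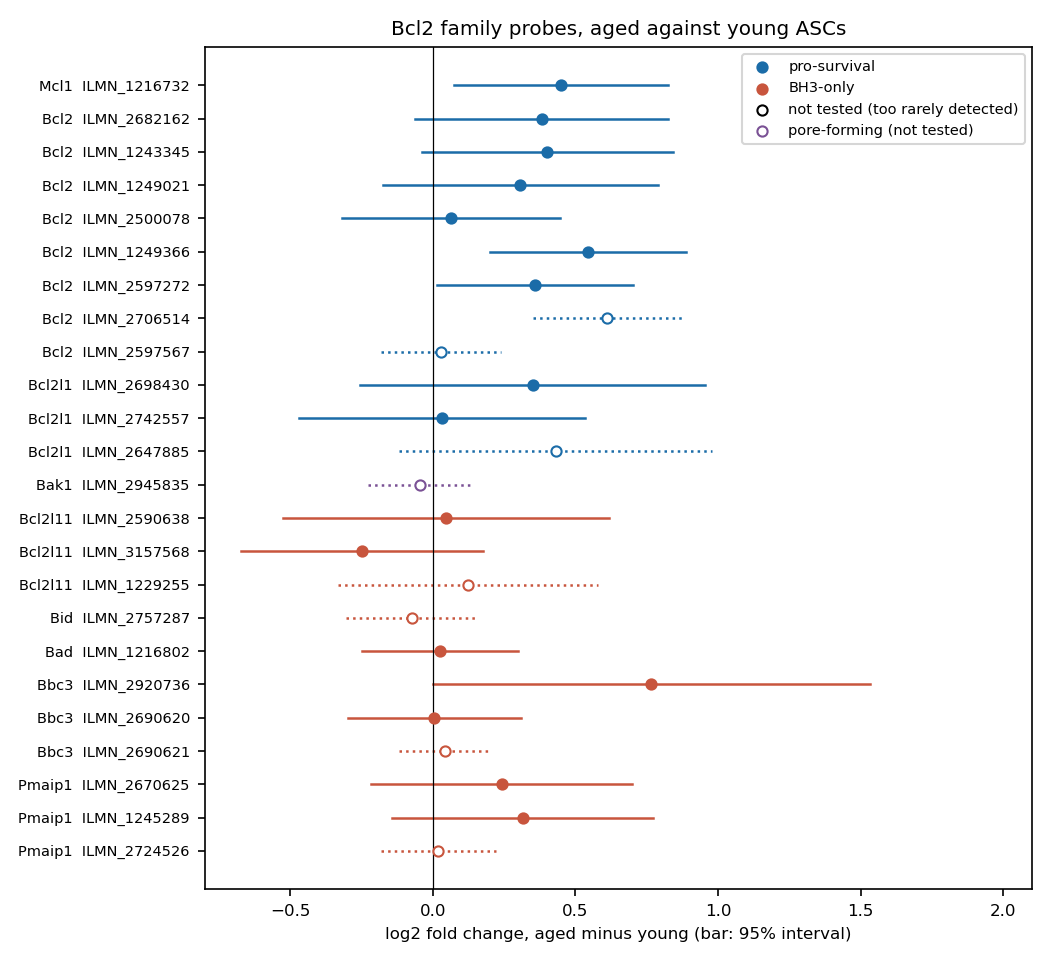
The horizontal axis gives the log2 fold change of aged minus young ASCs for each of the 24 probes, with bars for the 95% interval, and colours mark the role of the gene. Open points with dotted bars are the probes detected too rarely to be tested, whose values come from a fit over all 45281 probes. All pro-survival probes and most BH3-only probes lie to the right of 0, and 13 of the 16 intervals of tested probes span 0.

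Mcl1 encodes the short-lived pro-survival protein on which plasma cells depend, and its single probe (ILMN_1216732) was detected in every sample. The log2 signal of the young samples was lowest at 10.44, with a median of 11.02 and a highest value of 11.33, and that of the aged samples was 11.17, 11.28, 11.38, 11.61, 11.39 and 11.70. All 6 aged samples were above the young median and 4 of them above the highest young sample, so that the groups overlapped at their edge. The young mean was 10.97 ± 0.33 (SD, n = 9) and the aged mean 11.42 ± 0.20 (SD, n = 6), a difference of 0.45 (standard error 0.18, 95% interval 0.07 to 0.83), or 1.37-fold. It had an unadjusted p of 0.0215 and an adjusted p of 0.251 from limma, and a two-sided exact permutation test of this probe alone gave p = 0.0116. Over the alternatives of processing and of samples the difference stayed between 0.38 and 0.66 and the adjusted p from limma between 0.148 and 0.678.

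The spread of Mcl1 among young samples was not even. Young samples 1 to 4 gave the 4 lowest values, between 10.44 and 10.74, and the other young samples lay between 11.02 and 11.33. In the repeat arrays of young samples 3 and 4, which measure the same sample again, the signal of Mcl1 differed by 0.49 and 0.28. One of these is above and the other below the difference between the ages, which averages over all samples.

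Bcl2, the founding pro-survival member, was first found through a translocation in B cell lymphoma. Its brightest probe (ILMN_2682162), which the annotation assigns to a different RefSeq transcript than the other probes with an accession, was detected in every sample. Young samples ranged from 8.81 to 9.93 with a median of 9.59, and aged samples gave 10.12, 9.22, 9.88, 9.71, 10.07 and 9.72. Of the aged samples 2 were above every young sample, and aged sample 2 was the only one below the young median. The difference was 0.38 (standard error 0.21, 95% interval -0.06 to 0.83, adjusted p = 0.443 from limma).

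The probe of Bcl2 with the smallest p among tested members was ILMN_1249366. All 6 aged samples detected it but only 5 of the 9 young ones, with young values of 8.05 to 8.67 (median 8.27) and aged values of 8.64, 8.95, 8.98, 8.65, 9.51 and 8.47. All aged samples were above the young median, 3 of them above the highest young sample, and aged sample 5 was the highest. The young mean was 8.32 ± 0.20 (SD, n = 9) and the aged mean 8.87 ± 0.37 (SD, n = 6), a difference of 0.54 (standard error 0.17, 95% interval 0.20 to 0.89) with an unadjusted p of 0.0036 and an adjusted p of 0.111 from limma, which did not pass the test. The two-sided exact permutation test of this probe alone gave p = 0.0016. Since the probe was picked for its small p in the same samples, this value adds no separate support. The same permutation test gave p = 0.069 for the brightest probe of Bcl2 and p = 0.094 for that of Bbc3. With neqc the difference of ILMN_1249366 was 1.14 (adjusted p = 0.096 from limma), and with the first array of repeated samples alone it was 0.61 (adjusted p = 0.0557 from limma). Without aged sample 5 it was 0.41 (adjusted p = 0.231 from limma). Over all alternatives the difference of this probe stayed between 0.41 and 1.14 and the adjusted p from limma between 0.0557 and 0.250. Its repeat arrays differed by 1.07 in young sample 3 and by 0.18 in young sample 4.

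All 8 probes of Bcl2 had a higher aged mean. ILMN_1243345, with 8.08 to 9.03 (median 8.69) in young samples and 8.35 to 9.47 (median 9.19) in aged samples, differed by 0.40 (adjusted p = 0.411 from limma). ILMN_2597272 differed by 0.36 (standard error 0.16, unadjusted p = 0.0421, adjusted p = 0.332 from limma). Both had the same 4 aged samples, 1, 3, 4 and 6, above every young sample, while aged samples 2 and 5 lay among the young ones. ILMN_1249021 differed by 0.31 (adjusted p = 0.609 from limma), or by 0.18 without aged sample 1. ILMN_2500078, which carries the symbol without an accession, differed by 0.06 (adjusted p = 0.924 from limma), and its sign changed when young sample 2 or 6 was left out.

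A further probe of Bcl2 (ILMN_2706514) gave a detected signal in only 1 young sample but in 5 aged samples and so fell below the requirement for testing. Such a pattern, at least 5 of 6 aged and at most 1 of 9 young samples, was seen for 77 of all 45281 probes (0.170%). Young samples ranged from 7.83 to 8.38 with a median of 7.99, and aged samples gave 8.37, 8.73, 8.64, 8.29, 9.16 and 8.69. All of the aged values were above the young median and 4 were above the highest young sample. In a fit of all 45281 probes without a filter, the difference was 0.61 (95% interval 0.35 to 0.87, adjusted p = 0.0735 from limma). The last probe (ILMN_2597567) was detected in 1 young and 1 aged sample and differed by 0.03.

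**Figure D2:**
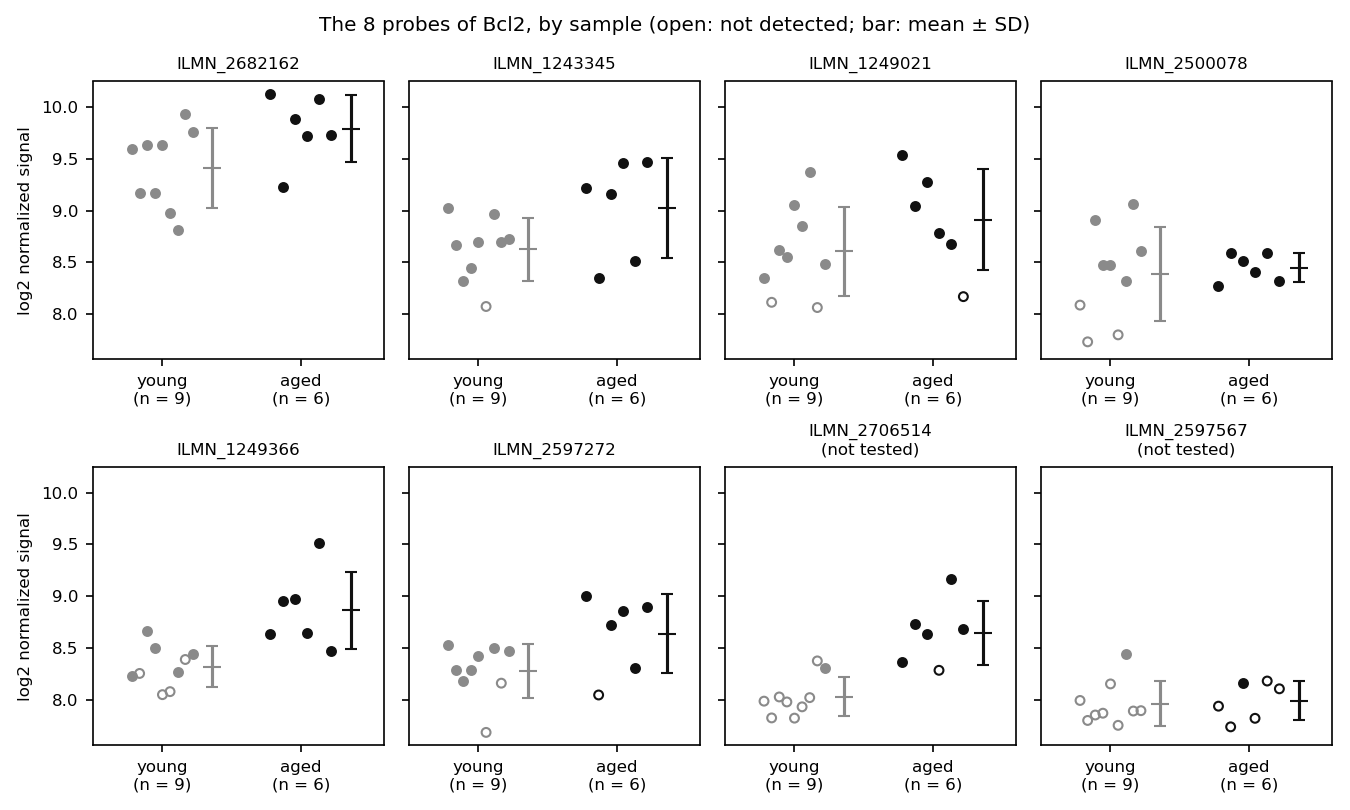
Each panel shows 1 probe of Bcl2, with the log2 normalized signal on the vertical axis and 1 point per sample for 9 young and 6 aged samples. Filled points were detected, open points were not, and bars give the mean ± SD; levels of different probes cannot be set against each other. ILMN_1249366 and ILMN_2706514 had all aged samples above the young median, and in all 8 panels some aged samples lie within the young range.

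Probes of 1 gene might be expected to vary together from sample to sample, and this was examined on the deviations of the 15 samples from their group means for the 19 pairs of tested probes of the same gene. Only ILMN_1243345 and ILMN_2597272 of Bcl2 did so (Pearson r = 0.92, permutation adjusted p = 0.0021, Spearman rho = 0.90, permutation adjusted p = 0.0019), and r was 0.85 without the 2 farthest samples. Over the 15 pairs of Bcl2 probes r lay between -0.54 and 0.92 with a median of -0.03. The pair of Pmaip1 gave r = 0.59 (permutation adjusted p = 0.222) and rho = 0.69 (permutation adjusted p = 0.0748), with r = 0.34 without the 2 farthest samples. The pairs of Bcl2l1, Bbc3 and Bcl2l11 gave 0.33, -0.21 and -0.56, none of which passed the adjustment. A higher aged mean at several probes of Bcl2 therefore comes from probes that, apart from that pair, were not shown to rank the samples in the same way.

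Bcl2l1 encodes BCL-XL, the third pro-survival protein. Its brightest tested probe (ILMN_2698430) passed detection in 6 young and 5 aged samples. Young samples ranged from 7.90 to 9.59 (median 8.38), and aged samples gave 8.09, 9.25, 8.95, 9.36, 8.41 and 9.72. The groups overlapped over nearly the whole range, with SDs of 0.61 in both, and the difference of 0.35 (standard error 0.29) had an adjusted p of 0.651 from limma. Leaving out aged sample 6 gave 0.20, and leaving out aged sample 1 gave 0.52. Its repeat arrays differed by 1.18 and 0.93, more than the groups did. ILMN_2742557 differed by 0.03 (95% interval -0.47 to 0.53, adjusted p = 0.973 from limma), which reversed under another scaling. In the probe that was not tested (ILMN_2647885, detected in 3 young and 3 aged samples) aged sample 6 stood apart at 10.15, where the other aged samples lay between 7.85 and 8.76.

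Of the pore-forming genes Bak1, whose protein sits in the outer mitochondrial membrane and opens it when activated, passed detection in 0 of the young and 1 of the 6 aged samples. Its log2 signal ranged from 7.80 to 8.25 in young and from 7.66 to 8.17 in aged samples and differed by -0.05, and a difference in Bak1 was not detectable at this signal.

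**Figure D3:**
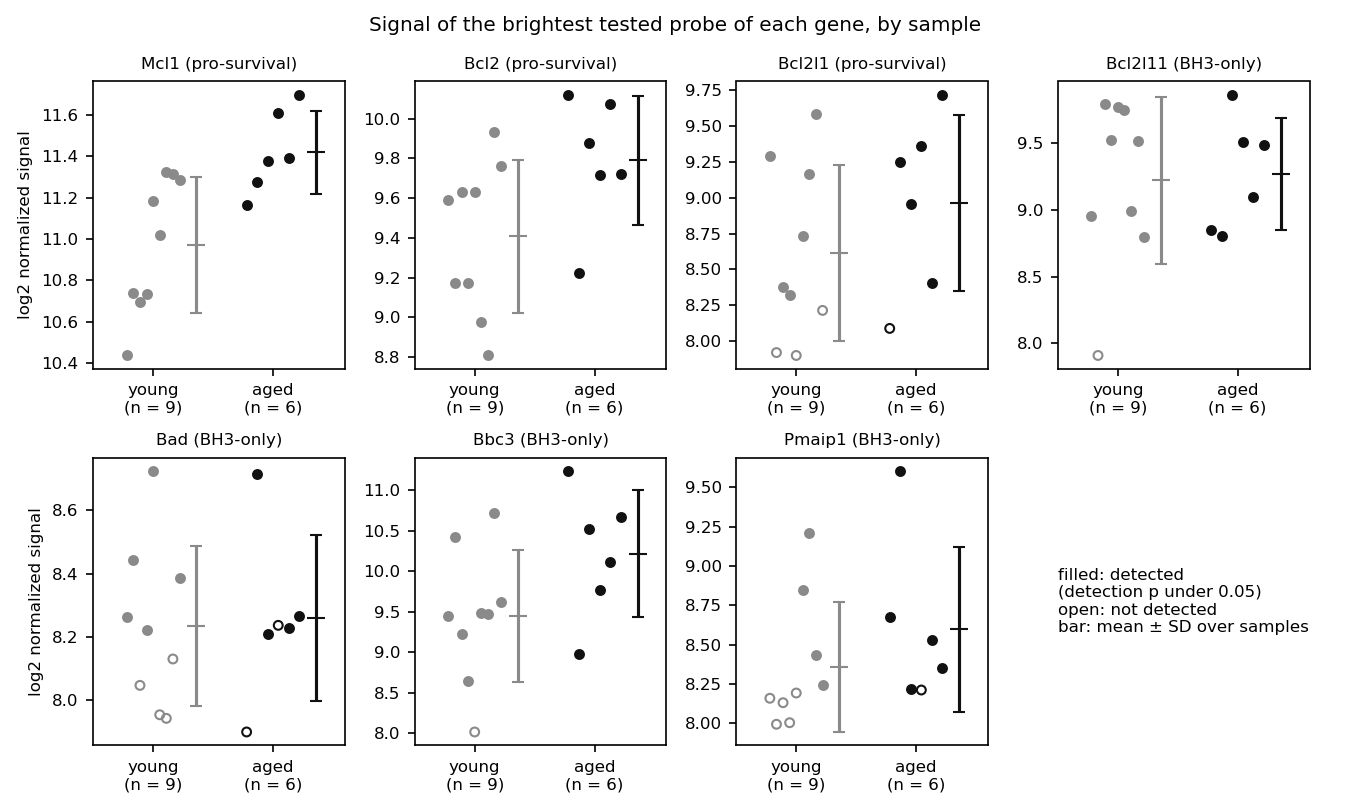
Each panel shows the brightest tested probe of 1 gene, with the log2 normalized signal on the vertical axis and 1 point per sample for 9 young and 6 aged samples. Filled points were detected, open points were not, and bars give the mean ± SD. Mcl1 has 4 aged samples above all young samples. Among the panels the BH3-only gene Bbc3 has the largest difference between the group means (0.77), and Pmaip1 differs by 0.24. The panels of the BH3-only genes Bcl2l11 and Bad show aged and young samples at similar levels.

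Bbc3 encodes PUMA, a BH3-only protein that p53 induces. Its brightest probe (ILMN_2920736) had the largest difference among the tested members. Young samples ranged from 8.01 to 10.71 with a median of 9.47, and aged samples gave 11.24, 8.98, 10.53, 9.77, 10.11 and 10.67. Of the aged samples 5 were above the young median, but only aged sample 1 was above every young sample, and aged sample 2 lay below the median. The means were 9.45 ± 0.82 (SD, n = 9) and 10.22 ± 0.79 (SD, n = 6), a difference of 0.77 (standard error 0.37, 95% interval -0.0008 to 1.53) with an adjusted p of 0.355 from limma. The repeat arrays of young samples 3 and 4 differed by 0.80 and 1.27 at this probe. A second probe of Bbc3 that was detected in all 15 samples (ILMN_2690620) did not show it, with 8.28 to 8.84 in young and 8.29 to 8.96 in aged samples and a difference of 0.01 (95% interval -0.30 to 0.31, adjusted p = 0.994 from limma). The third (ILMN_2690621), detected in 3 young and 3 aged samples, differed by 0.04.

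Bcl2l11 encodes BIM, the BH3-only protein that limits the life of many lymphocytes, and it was the only member with a lower aged mean at a tested probe. That probe (ILMN_3157568) was detected in every sample, with 8.61 to 9.75 (median 9.18) in young samples and 9.03, 9.34, 8.62, 8.86, 8.80 and 8.97 in aged samples. Only aged sample 2 was above the young median, and the difference was -0.25 (standard error 0.20, 95% interval -0.67 to 0.18, adjusted p = 0.644 from limma). ILMN_2590638, which is assigned to a different RefSeq transcript, had 7.91 to 9.79 in young and 8.80 to 9.86 in aged samples and differed by 0.05 (95% interval -0.53 to 0.62, adjusted p = 0.967 from limma). Its repeat arrays differed by 0.98 and 1.00. The third probe (ILMN_1229255) was detected in 3 young and 3 aged samples and differed by 0.12.

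Pmaip1 encodes NOXA, a BH3-only protein that binds MCL1. Both of its tested probes passed detection in 4 young and 5 aged samples. At ILMN_2670625 the young samples ranged from 7.99 to 9.21 (median 8.19) and the aged samples gave 8.68, 9.60, 8.22, 8.21, 8.53 and 8.35, a difference of 0.24 with a standard error of 0.22 (adjusted p = 0.689 from limma). At ILMN_1245289 they ranged from 7.83 to 9.20 and from 8.17 to 9.58, a difference of 0.32 with a standard error of 0.22 (adjusted p = 0.57 from limma). Aged sample 2 was the highest sample at both probes, and without it the differences were 0.04 and 0.11. ILMN_2724526, which was not tested, differed by 0.02.

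Bad and Bid stayed near background. Bad, a BH3-only protein regulated by survival kinases, passed detection in 5 young and 4 aged samples and differed by 0.02 (95% interval -0.25 to 0.30, adjusted p = 0.963 from limma), and the sign turned under another scaling. Bid, which links death receptors to mitochondria, was detected in 5 young and 2 aged samples. Its log2 signal ranged from 7.88 to 8.62 (median 8.33) in young and from 8.08 to 8.30 in aged samples, none of which was above the young median, and the groups overlapped, with a difference of -0.07 that was not tested.

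The repeat arrays give a spread beside which these differences can be read. Whether they repeat the hybridization only or also the amplification of the RNA is not given in the sources used here. Over all probes, the 2 arrays of a sample correlated with r = 0.925 for young sample 3 and 0.920 for young sample 4. Across the 24 members the absolute difference between the 2 arrays of a sample had a median of 0.24 in young sample 3 and 0.19 in young sample 4, and reached 1.18 and 1.27. At 11 of the 16 tested probes the difference in at least 1 of these samples was larger than the difference between the age groups, and at 7 probes this held in both. The share over all tested probes was not computed, so these counts only describe the members. Where the ages hardly differed, as at ILMN_2690620 of Bbc3 (0.005) and at Bad (0.025), almost any spread between arrays is larger. The difference between groups is one of means over 9 and 6 samples and so varies less than that between single arrays. The 5 probes at which neither pair of arrays differed by more than the ages were 3 of Bcl2, 1 of Bcl2l11 and 1 of Pmaip1.

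**Figure D4:**
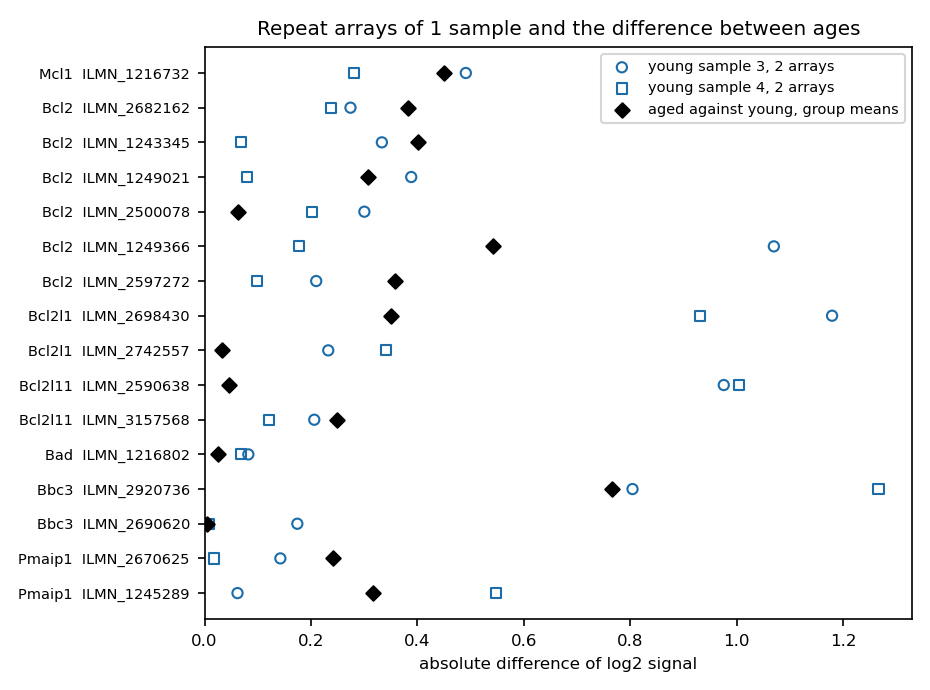
The horizontal axis gives the absolute difference of log2 signal for each of the 16 tested probes. Black diamonds are the difference between the means of 6 aged and 9 young samples, and open circles and squares are the difference between the 2 arrays of young samples 3 and 4. At the brightest probes of Bbc3 and Bcl2l1 and at ILMN_2590638 of Bcl2l11 both open symbols lie to the right of the diamond.

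Other genes of the apoptosis machinery were examined from lists, each gene by its brightest tested probe. These lists were written with earlier results of these data known, so their called counts cannot be weighed against the shares of all genes. Of 37 tested genes 20 had a higher and 17 a lower aged mean, with a median log2 fold change of 0.03, and 1 gene rose and 1 fell with an adjusted p from limma under 0.05, as 1.13% and 0.382% of all tested genes did. Among the 14 tested regulators of Bcl2 family transcripts or proteins, Fbxw7 rose. It encodes the substrate-binding subunit of a ubiquitin ligase that is known to mark MCL1 protein, among many others, for degradation.

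Fbxw7 (ILMN_2681824) was detected in every sample. The log2 signal of young samples ranged from 8.51 to 9.64 with a median of 9.29, and aged samples gave 10.35, 10.75, 10.59, 10.51, 9.78 and 10.19. The groups did not overlap, and young samples 1 to 4 were the 4 lowest, as they were for Mcl1. The difference was 1.204 (95% interval 0.74 to 1.67, standard error 0.22) with an adjusted p of 0.0125 from limma. A second probe of Fbxw7 (ILMN_2844699), dimmer and detected in 6 young and 5 aged samples, differed by 0.07 (95% interval -0.14 to 0.28, adjusted p = 0.819 from limma). The call of the first probe was lost when all 45281 probes were tested without a filter (adjusted p = 0.0654 from limma).

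Further regulators did not pass. Bag1, a co-chaperone that binds BCL2, differed by 0.60 (adjusted p = 0.133 from limma), and Atf4, a transcription factor of the stress response, by 0.24 (adjusted p = 0.522 from limma). Of the 4 tested inhibitors of apoptosis, Birc5, which encodes survivin and acts mainly in dividing cells, fell by 0.79 (standard error 0.17, adjusted p = 0.0188 from limma), and precursor B cell markers fell in the same samples, whose part in this was not tested. Its call was lost without aged sample 3, 4 or 6, with adjusted p-values up to 0.0577 from limma. Birc2, which encodes the ubiquitin ligase cIAP1, differed by 0.43 (adjusted p = 0.311 from limma), and Birc6 by -0.12 (adjusted p = 0.727 from limma).

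In the death receptor pathway 0 of 5 tested genes were called. Cflar, whose protein FLIP blocks caspase activation at death receptors, had young values of 8.52 ± 0.55 (SD, n = 9) and aged values of 9.32 ± 0.40 (SD, n = 6), and all 6 aged samples were above the young median, with a difference of 0.79 (unadjusted p = 0.0049, adjusted p = 0.132 from limma). Tnfrsf1b, a receptor for TNF, differed by 0.51 (adjusted p = 0.287 from limma) and Tnfrsf10b, the mouse TRAIL receptor, by -0.09 (adjusted p = 0.873 from limma).

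Among genes of the mitochondrial pathway, apoptosome and caspases 0 of 11 tested genes were called, with 5 higher and 6 lower in mean and a median of -0.01. Vdac1, a channel of the outer mitochondrial membrane, differed by -0.39 (adjusted p = 0.275 from limma). Diablo, an antagonist of inhibitors of apoptosis, differed by 0.27 (adjusted p = 0.752 from limma), and Cycs, which encodes cytochrome c, by -0.29 (adjusted p = 0.762 from limma).

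Of 8 other family members with a probe, 3 were tested and 0 called. Bcl2a1d and Bcl2a1b, near-identical copies of the pro-survival gene A1 whose probes may not tell them apart, differed by 0.50 (adjusted p = 0.413 from limma) and 0.40 (adjusted p = 0.440 from limma), with all 6 aged samples above the young median at both. Bnip3l, which acts in the removal of mitochondria, differed by -0.30 (adjusted p = 0.754 from limma). Bcl2l2, the pro-survival gene of BCL-W, had no tested probe. Its 4 probes were looked at after their values were seen. ILMN_2936517 passed detection in 1 young and 5 aged samples and differed by 0.27, and ILMN_2636443 in 1 young and 4 aged samples and differed by 0.30. ILMN_1255755 differed by 0.10 (0 young and 1 aged sample detected), and ILMN_2551387 went the other way, with -0.29 (1 young and 0 aged samples detected).

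**Figure D5:**
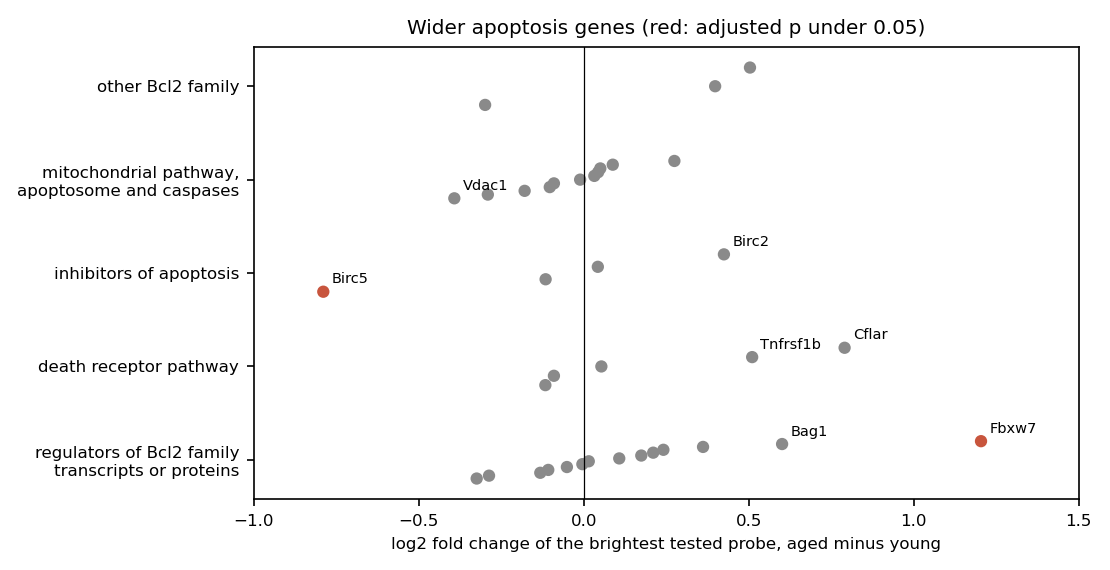
Each point is the log2 fold change, aged minus young, of the brightest tested probe of 1 gene, with 1 row per list of apoptosis genes and 37 genes in all. Red points have an adjusted p from limma below 0.05, and every gene at an unadjusted p below 0.05 is named. Fbxw7 lies at 1.204 and Birc5 at -0.79, and most other genes lie close to 0.

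The tested probes of other genes whose deviations from the group means were most like those of Mcl1 over the 15 samples, given as a description, were those of Zcchc8 (Pearson r = 0.92), Zfp36 (0.91), Riok3 (0.89), Ubb-ps (0.88) and Ctsb (0.88). For the brightest probe of Bcl2 they were Dcp1a (0.84), Slc31a2 (0.83), Smarcc1 (0.82), Irf3 (0.81) and Tesk1 (0.81). These 5 were chosen as the highest among all tested probes with 1 gene symbol, and all points share the same arrays and normalization. None of the 10 probes passed the adjusted threshold between the ages (adjusted p from limma 0.285 or more). Their log2 fold changes ran from -0.66 (Tesk1) to 0.62 (Zfp36).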

How the data were processed

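The authors deposited raw probe intensities of every array, with a detection p-value beside each. They also deposited quantile normalized intensities for 26509 probes, used as an alternative, and their methods name MATLAB for this. The scanner software is not given in the sources used here, and 0 columns of sample values were left unused. Quantile normalization used limma 3.58.1 (R 4.3.3), followed by log2 transformation. The 2 arrays of young samples 3 and 4 were averaged, and detection on either was enough. Probes detected in at least 7.5 of 15 samples whose highest and lowest values differed at least 1.2-fold were tested (two-sided, lmFit and trended eBayes, Benjamini-Hochberg over 11073 probes, threshold 0.05). Probes were named from the platform annotation, which gives 20873 probes 1 gene and 9 probes several.

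All probes of the members are named. Of each wider list the 3 genes with the smallest p on the brightest tested probe and every called gene are named. For Mcl1 and Bcl2 the 5 most similar probes are named. The second probe of Fbxw7 and Bcl2l2 were added after their values were seen. The members and lists were chosen with earlier results of these data known. Alternatives were the background correction, the scaling, the deposited values, the filters, the trend, the methods' t-test, the first array of repeated samples, leaving out each sample and the replicate number as a block. Samples are cells of single or of several mice, so p-values measure the spread between samples, which may not be that between mice. The data.table package (1.17.8) read the files, and matplotlib (3.10.9) with pandas (2.3.3) made the plots.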

Additional observations from a re-analysis of the deposited data

Results flagged for a closer look

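In 4 of the 48 sets of member values (24 probes in 2 age groups) 1 sample lay far from the other samples of its group, where about 1 in 20 sets would by chance. At ILMN_1245289 of Pmaip1, which encodes NOXA, young sample 5 was the highest at a log2 signal of 9.195. At ILMN_2724526 of Pmaip1 young sample 7 was the highest of its group at 8.57, and at ILMN_2670625 of Pmaip1 aged sample 2 was the highest at 9.604. At ILMN_2597272 of Bcl2 young sample 6 was the lowest at 7.691, where the probe was not detected.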

How the results depend on the processing

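The count of Bcl2 family probes at an adjusted p under 0.05 was 0 under every alternative run. Leaving out 1 sample at a time gave 1 to 6 members at an unadjusted p under 0.05. The lowest count was 1 of 17 without aged sample 6, beside 1391 of all 11755 tested probes. The highest was 6 of 17 without aged sample 2, beside 1893 of 11781. Over all probes the count of 153 became 89 with scaling to the 75th percentile (82 higher), 45 without the filter and 99 with the methods' t-test, and lay between 40 (without aged sample 3) and 317 (without aged sample 2). The 75th percentile scaling raised the share of higher probes at an unadjusted p under 0.05 from 62.6% to 80.1%, and 13 of 16 members were then higher. Under it only 1 gene of the wider lists was called, since Birc5 had an adjusted p of 0.097 from limma. At an unadjusted p from limma under 0.05, 3242 of 45281 probes differed without the filter and 733 of 3770 when detection in all samples was required. The main setting gave 1560 of 11073.

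Differences close to 0 changed sign. With the 75th percentile scaling Bad became -0.065 and ILMN_2742557 of Bcl2l1 -0.061, and with the first array of repeated samples ILMN_2690620 of Bbc3 became -0.0051. Leaving out 1 sample at a time gave -0.066 to 0.097 for Bad, -0.075 to 0.058 for ILMN_2690620 of Bbc3, -0.13 to 0.15 for ILMN_2742557 of Bcl2l1, -0.12 to 0.14 for ILMN_2590638 of Bcl2l11 and -0.018 to 0.15 for ILMN_2500078 of Bcl2. The cause was not tested.

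Whether the replicate numbers pair aged and young samples was not settled. The deviations of same-numbered samples correlated with r = 0.18 for number 1 and 0.23 for number 2. For both numbers the aged sample correlated best with its own number. Numbers 3 to 6 gave r from -0.10 to -0.02 without such a match. Median raw signals ran from 104.9 to 333.4 in young and from 152.4 to 267.1 in aged samples, with number 1 lowest in both groups. With the replicate number as a block 55 probes and 0 members were called, Birc5 lost its call (adjusted p = 0.136 from limma), and Bad (-0.016), ILMN_2690620 of Bbc3 (-0.032) and ILMN_2590638 of Bcl2l11 (-0.015) changed sign. Signals near background limit what can be seen of Bak1, Bid and Bad.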
